A study of Solanum lycopersicum with 24 samples.

Results

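The effect of prolonged mild heat on tomato anthers was examined at the free microspore stage, in the 8 of the 24 sequenced libraries that carry this stage in their labels. All plants were Solanum lycopersicum of the dwarf cultivar Micro-Tom under a 12-hour photoperiod. The 4 control libraries (CT) are from plants held at 25 °C in the light, 19 °C in the dark and 50% relative humidity. The 4 heat libraries (LTMH) are from plants transferred on flowering to 34 °C in the light, 28 °C in the dark and 68% relative humidity, and sampled 6 days later. Temperature and humidity changed together, so their parts cannot be told apart. Each library was made from 6 pooled anthers collected about 5 hours into the light period. The same design was also sequenced at the tetrad stage after 4 days and at the polarized microspore stage after 8 days, and those 16 libraries served as the developmental reference and to estimate the spread. Whether separate plants supplied the 4 libraries of a group is not stated in the labels. The p-values therefore reflect only the spread between these samples, which may be technical.

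An anther holds the developing male cells inside several wall layers. Meiosis yields tetrads enclosed in callose, the callose is dissolved to release free microspores, and each microspore then enlarges, becomes vacuolated and polarizes its nucleus before the asymmetric division that founds the pollen grain. The innermost wall layer, the tapetum, feeds the microspores, secretes the enzyme that frees them and supplies pollen wall material before it degenerates. Plant cells answer heat through heat stress transcription factors that raise the synthesis of chaperones, and male development is among the most heat-sensitive phases of a plant's life. Anthers pooled at this stage therefore hold cells that change quickly. In such bulk samples fewer cells of a type and less RNA per cell cannot be told apart. Names do not accompany the gene identifiers in the files, so gene groups were defined by their behaviour in the tetrad and polarized microspore libraries, and only 4 genes are given by identifier. For the same reason anther and heat marker genes could not be checked, and the stage label was checked by developmental position alone.

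The 8 libraries held between 16049773 and 18536477 reads over genes, with reads in 23952 to 25184 of the 35768 genes listed. Neither total reads, nor the number of genes with reads, nor the share of reads in the 10 most abundant genes differed between the groups beyond the spread (two-sided exact permutation p = 0.257, 0.457 and 0.543, each 0.543 after adjustment over the 3 tests). The closest pair of libraries within a group still differed by 36.2 times the sampling noise (chi-square per degree of freedom), so all 8 were counted as separate samples.

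Libraries of the same group differed widely in developmental position, and the positions of CT and LTMH interleaved. Position was set at 0 for the mean of the tetrad CT libraries and at 1 for the mean of the polarized microspore CT libraries, using the log2 CPM (read counts scaled to the library size) of 6094 genes that differed at least 2-fold between those groups. No free microspore library entered the means that fix the ends of this scale, but these libraries were in the fit that chose its genes. The CT libraries lay at 0.336, 0.236, 0.524 and 0.642 for replicates 1 to 4, and the LTMH libraries at 0.767, 0.426, 0.363 and 0.438. All 8 lay above every tetrad CT library and below every polarized microspore CT library. Of the tetrad LTMH libraries, replicate 4, at 0.290, lay above free microspore CT replicate 2. Tetrad LTMH libraries averaged 0.163 and polarized microspore LTMH libraries 0.874, beside 0 and 1 for their CT libraries. A heat effect on the scale genes and a change in development cannot be told apart here. Left without genes called for heat, the scale held 4080 genes. With it 2201 genes were called for heat at equal position, beside 2217 with the full scale. LTMH replicate 1 was the furthest along of all 8, and CT replicate 2 the least.

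**Figure D1:**
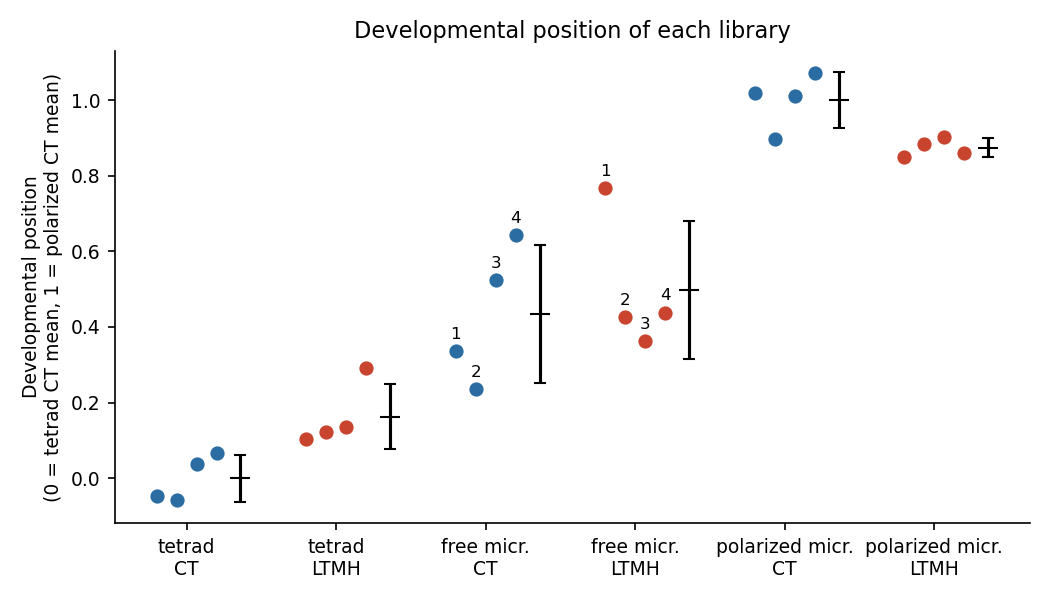
Developmental position (vertical axis, no unit) of the 24 libraries by group, with the mean and SD of each group beside its points (n = 4) and replicate numbers at the free microspore stage. The free microspore libraries span 0.236 to 0.767, and the positions of their 4 CT and 4 LTMH libraries interleave.

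CT averaged 0.435 ± 0.183 and LTMH 0.498 ± 0.182 (SD over 4 libraries). This difference of 0.0637 was smaller than the spread between libraries (two-sided exact permutation p = 0.60, where 4 against 4 can give 0.0286 at the least). Its sign turned without LTMH replicate 1 (-0.0257) or without CT replicate 2 (-0.00258). The positions spanned 0.407 in CT and 0.404 in LTMH. At the other stages the spans were 0.127 and 0.187 for tetrad CT and LTMH, and 0.175 and 0.0539 for polarized microspore CT and LTMH. The median gene had an SD of 0.240 log2 CPM among the free microspore CT libraries and 0.186 among the LTMH libraries, compared with 0.159 to 0.208 in the other 4 groups.

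A principal component analysis of the 500 most variable genes among the 8 libraries put 59.1% of their variance on the first component and 16.9% on the second. CT replicate 2 and LTMH replicate 1, the least and the most advanced libraries, formed the ends of the first component. On the second component the 4 LTMH libraries lay between 6.08 and 25.5 and the 4 CT libraries between -22.5 and -9.16, with no overlap. Over all 21429 genes tested, position alone accounted for 37.9% of the sum of squares of log2 CPM among the 8 libraries, temperature alone for 22.7%, and both together for 59.4%. A single term unrelated to the data would take 14.3%. Position was measured in these same libraries. Among the 6094 genes that defined the scale, position accounted for 48.4% and temperature for 18.3%. Among the 15335 genes that did not define the scale, position accounted for 14.3% and temperature for 32.5%. Outside the scale position thus took no more than an unrelated term would take.

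Genes that tracked position inside the stage followed the direction of normal development. With temperature in the model, 402 genes rose and 1012 fell with position among the 8 libraries, 6.6% of genes tested (edgeR quasi-likelihood test, adjusted p below 0.05). Of the 402, 392 were higher in polarized microspore CT than in tetrad CT anthers, and of the 1012, 1002 were lower there. Since 1127 of these genes helped to define position, this is a description of the scale. Among the genes outside the scale 287, or 1.87%, were called, 241 rising and 46 falling. That number rested on single libraries. It became 27 without CT replicate 2, 138 without CT replicate 3, 135 without LTMH replicate 1 and 116 without LTMH replicate 3. It was 141 in limma on log2(FPKM + 1), with 69 rising and 72 falling, and 15 in a fit of the 8 libraries alone.

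At equal developmental position, free microspore anthers under LTMH had higher levels of 940 genes and lower levels of 1277. These are 4.39% and 5.96% of the 21429 genes tested, 10.3% together (edgeR quasi-likelihood test with all 24 libraries and a position term for this stage, Benjamini-Hochberg adjusted p below 0.05, no minimum fold). Changes were moderate, with a median log2 change of 0.62 over the higher and -0.44 over the lower genes. A change of at least 2-fold was estimated for 272 of the higher and 201 of the lower genes, of at least 4-fold for 95 and 54, and of at least 8-fold for 42 and 9. At folds of 1.5 and above increases were the more numerous, 502 against 417, although in this scaling fewer genes rose than fell. Tested against a log2 change of 1 rather than 0, 16 genes were higher and 3 lower.

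The share of calls that were higher, 42.4%, depended on the scaling and on the method of fitting. It was 54.0% with upper-quartile scaling (1137 higher, 970 lower) and 66.1% (1379 and 706) by limma on log2(FPKM + 1). The total of 2217 became 1431 without CT replicate 3, 1303 without LTMH replicate 3, and 857 (440 higher, 417 lower) when the 8 free microspore libraries were fitted alone.

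Without the position term the counts were 903 higher and 988 lower, 4.21% and 4.61% of those tested and 8.82% together. Of the higher genes 832, and of the lower genes 922, were called in both fits, and no gene was called in opposite directions. Allowing for position added 108 higher and 355 lower genes and removed 71 and 66. Of the 355 added lower genes, 292 were genes that rise from the tetrad to the polarized microspore stage in CT. Over all 355 the median log2 change moved from -0.28 to -0.33, while the median SE fell from 0.102 to 0.0891. Of the 108 added higher genes, 74 were genes that fall along the same path, and over all 108 the median log2 change moved from 0.53 to 0.68.

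The 4 LTMH libraries all lay above the 4 CT libraries in CPM for 1440 genes (6.72%) and all below them for 1320 (6.16%), or 12.9% together. Of these 2760 genes, 1493 were among the 2217 called at equal position. The remaining called genes overlapped between the groups before position was taken into account. No gene went from at most 3 reads in one group to at least 100 in the other.

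The genes with the largest position-adjusted changes were taken from 1333 genes, 667 higher and 666 lower, that were called in both fits with the same sign, averaged 1 CPM or more in the 8 libraries and did not overlap between groups. The lack of overlap and the adjusted p below 0.05 in both fits were thus conditions of the choice. For the genes printed they are a description. Both genes that rose most were near absence in CT, which the choice by fold favours, and reached the level required through their LTMH libraries.

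Solyc02g087500.2 was measured at 0.398, 0.253, 0.893 and 1.12 CPM in CT replicates 1 to 4, and at 102, 93.8, 75.2 and 104 CPM in LTMH replicates 1 to 4. Every LTMH library was far above every CT library, and the LTMH levels were close to each other although these libraries lay at positions from 0.363 to 0.767. The position-adjusted log2 change was 7.06 ± 1.23 (SE; edgeR adjusted p = 0.00145), and 7.12 ± 1.20 without the position term. At the tetrad stage its LTMH libraries were uneven, at 0.292, 1.49, 3.21 and 52.1 CPM for replicates 1 to 4, the highest being the library furthest along. At the polarized microspore stage LTMH libraries ranged from 18.4 to 108 CPM and CT libraries from 0.492 to 2.01 CPM.

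Solyc01g108860.3 had 5 reads in the 4 CT libraries together, at 0.114, 0.127, 0.0558 and 0 CPM. In LTMH replicates 1 to 4 it had 1.74, 0.848, 3.53 and 5.61 CPM, or 223 reads together. The groups did not overlap, as the choice required, and the LTMH libraries differed by several fold without following position. The position-adjusted log2 change was 5.39 ± 1.03 (SE; edgeR adjusted p = 0.00254), but its size rests on very few CT reads. It was 1.62 by limma on log2(FPKM + 1) and 3.89 on log2(FPKM + 0.1), and the gene was not called against a log2 change of 1 (edgeR adjusted p = 0.0941). Heat also raised it at the tetrad stage (log2 change 2.39 ± 0.82 SE; edgeR adjusted p = 0.0439) and at the polarized microspore stage (5.49 ± 0.87 SE; edgeR adjusted p = 0.000250).

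Both genes that fell most had their highest CT levels at this stage, which the choice by fold and level favours. Solyc10g083580.2 reached the level required through its CT libraries. Solyc10g083580.2 was measured at 8.54, 5.82, 19.0 and 24.7 CPM in CT replicates 1 to 4, and at 1.14, 0.622, 1.01 and 0.447 CPM in LTMH replicates 1 to 4. In CT its level was highest in the most advanced libraries, whereas all LTMH libraries stayed near 1 CPM, the most advanced one included. Its position-adjusted log2 change was -4.26 ± 0.61 (SE; edgeR adjusted p = 0.000257). At the other stages its CT levels were between 0 and 0.767 CPM in tetrad libraries and between 0.554 and 5.32 CPM in polarized microspore libraries. Heat was not called there (log2 change -2.28 ± 1.18 SE, edgeR adjusted p = 0.174, and -1.43 ± 0.66 SE, edgeR adjusted p = 0.138).

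Solyc08g080650.3 had 6.77, 12.7, 13.4 and 41.7 CPM in CT replicates 1 to 4 and 4.30, 2.94, 0.785 and 0.596 CPM in LTMH replicates 1 to 4. The lowest CT library was thus only slightly above the highest LTMH library, and in both groups the most advanced library was the highest. The log2 change was -3.11 ± 0.77 without the position term (SE; edgeR adjusted p = 0.0155) and -3.40 ± 0.70 with it (SE; edgeR adjusted p = 0.00447). With the term the gene remained called without any 1 of the 8 libraries (edgeR adjusted p from 0.00539 to 0.0421) and in the 8 libraries alone (0.0332), but not against a log2 change of 1 (0.206). Without the term the call was lost without CT replicate 4 (edgeR adjusted p = 0.0664), LTMH replicate 3 (0.0523) or LTMH replicate 4 (0.0522), and in the 8 libraries alone (0.0929). Heat was not called at the tetrad (log2 change -1.03 ± 1.37 SE, edgeR adjusted p = 0.629) or the polarized microspore stage (-0.51 ± 0.77 SE, edgeR adjusted p = 0.709). For none of these 4 genes did the difference between the effect at this stage and the mean effect at the other stages pass the test (edgeR adjusted p from 0.964 to 0.972 without and from 0.762 to 0.900 with the position term).

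**Figure D2:**
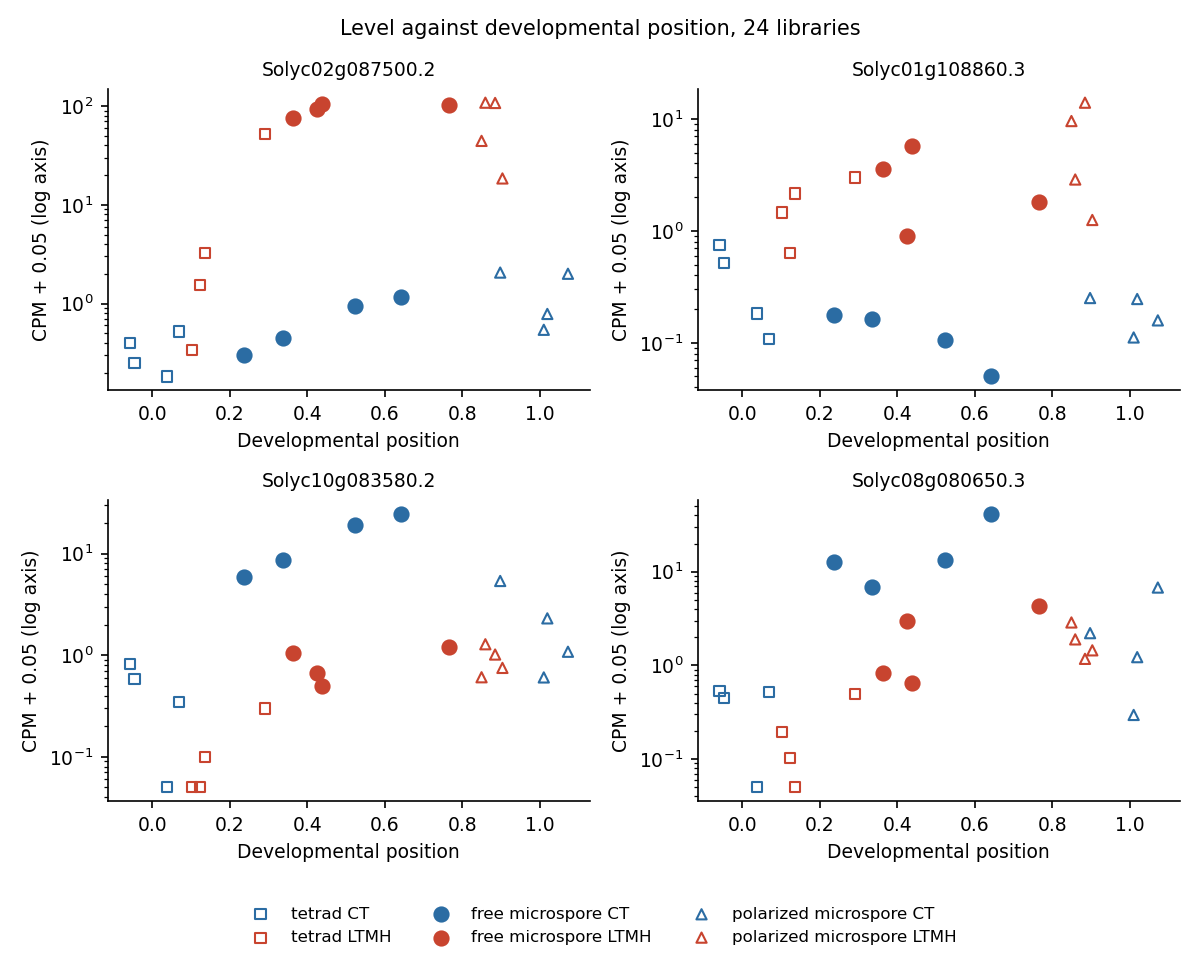
CPM plus 0.05 (log axis) against developmental position (no unit) for the 2 genes that rose most and the 2 that fell most, in all 24 libraries; filled circles are free microspore libraries, open squares tetrad and open triangles polarized microspore libraries, in blue for CT and red for LTMH. Solyc02g087500.2 and Solyc01g108860.3 are higher in every free microspore LTMH library, and Solyc10g083580.2 and Solyc08g080650.3 reach their highest levels in free microspore CT libraries.

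Calls were unevenly divided over genes grouped by normal development, and the counts moved with the allowance for position. The 6641 genes that were higher in polarized microspore CT than in tetrad CT anthers are called later genes here, and the 6978 that were lower are called earlier genes. At equal position 692 later genes were lower and 364 higher in LTMH, 10.4% and 5.48% of them, beside 5.96% and 4.39% of all genes tested. Without the position term the same genes were divided evenly, with 403 lower and 400 higher. The median position-adjusted log2 change over all later genes was -0.03, beside -0.01 over all genes tested.

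Of the 4523 later genes whose developmental rise was under 2-fold, 571 were lower and 228 higher in LTMH, 12.6% and 5.04% of them. The other 2118 later genes, with a rise of at least 2-fold, are scale genes from which position was computed, so the allowance for position acts on their balance directly. Of these, 121 were lower and 136 higher, 5.71% and 6.42%, beside 5.96% and 4.39% of all genes tested. Over all later genes the preponderance depended on the scaling, on the method of fitting and on single libraries. Later genes were lower in 507 and higher in 422 cases with upper-quartile scaling, and higher in 499 and lower in 347 by limma on log2(FPKM + 1), where the balance turned. Without CT replicate 3 they were lower in 337 and higher in 313 cases, and without LTMH replicate 3 in 405 and 219. The 8 libraries fitted alone gave 186 lower and 171 higher. Without CT replicate 4, 195 were called higher and 623 lower, and without the most advanced library of each group 196 and 604. The 4523 genes by themselves gave 403 lower and 279 higher with upper-quartile scaling, and 268 and 330 by limma on log2(FPKM + 1). Without CT replicate 3 they gave 283 lower and 169 higher, while the 2118 scale genes gave 54 and 144. In the 8 libraries alone they gave 140 and 84 of 4521 tested, and the scale genes 46 and 87 of 1795.

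Of the earlier genes, 216 were higher and 252 lower at equal position, 3.10% and 3.61% of them. This balance turned with the scaling, to 284 higher and 207 lower with upper-quartile scaling and to 348 and 169 by limma on FPKM. In the 8 libraries alone it was 129 and 105. Without the position term the counts were 144 higher and 294 lower. With the LTMH libraries 0.0637 ahead on average, the term lowers the estimates of genes that rise with position and raises those of genes that fall. It also changes the SEs, as given above for the added lower genes. How far each of these accounts for the shifts in calls was not tested. The sign of the 0.0637 offset turned without CT replicate 2 or LTMH replicate 1, as given above. The 7810 genes not called between tetrad CT and polarized microspore CT had 360 higher and 333 lower members at equal position, and 359 and 291 without the term. With upper-quartile scaling they had 431 and 256, and by limma on FPKM 532 and 190.

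**Figure D3:**
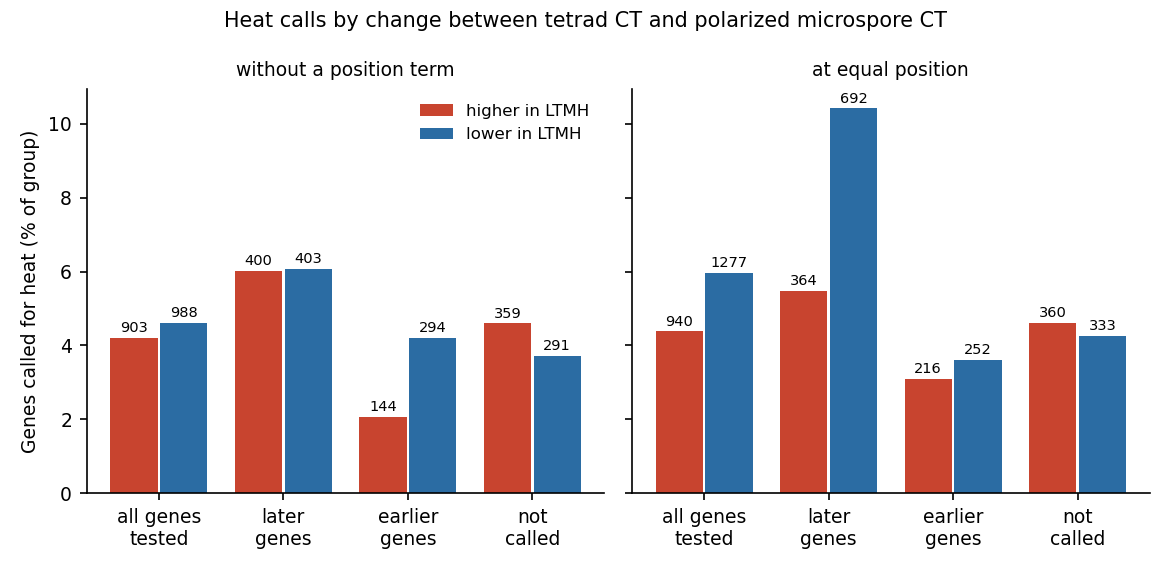
Percentage of genes called higher (red) or lower (blue) in free microspore LTMH, for all genes tested and for genes grouped by their change between tetrad CT and polarized microspore CT, without (left) and with (right) a term for developmental position; numbers over bars are genes. Lower calls among later genes go from 403 to 692 when position is allowed for.

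Genes called for heat at both other stages were often called here too, and in those sets every call had the same direction as there. The stages share no library, so the heat calls at the tetrad stage (21.2% of genes tested) and at the polarized microspore stage (19%) were made on other anthers. Of 593 genes higher in LTMH at both of those stages, 364 were called higher in free microspore anthers too, and none lower. Of 763 genes lower at both, 437 were called lower and none higher. The sign of the position-adjusted change was the same in 99.3% of each set, beside 49.2% of all genes with a positive and 50.8% with a negative change. The median position-adjusted log2 change was 0.47 for the higher set and -0.37 for the lower set. The median changes at the stages that chose these sets were 0.59 at both for the higher set, and -0.45 and -0.52 at the tetrad and polarized microspore stages for the lower set.

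These calls come from 1 fit in which a gene's spread is shared over all stages, which makes genes of low spread easier to call at each of them. The heat test was then refitted on the 8 free microspore libraries alone, with both sets kept from the fit of 24 libraries. Genes of low spread can therefore still be favoured in the sets. In the refit 206 of the 578 genes of the higher set that could be tested were higher and none lower. Of 754 genes of the lower set, 228 were lower and none higher. In that fit 2.19% of all genes tested were higher and 2.08% lower.

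**Figure D4:**
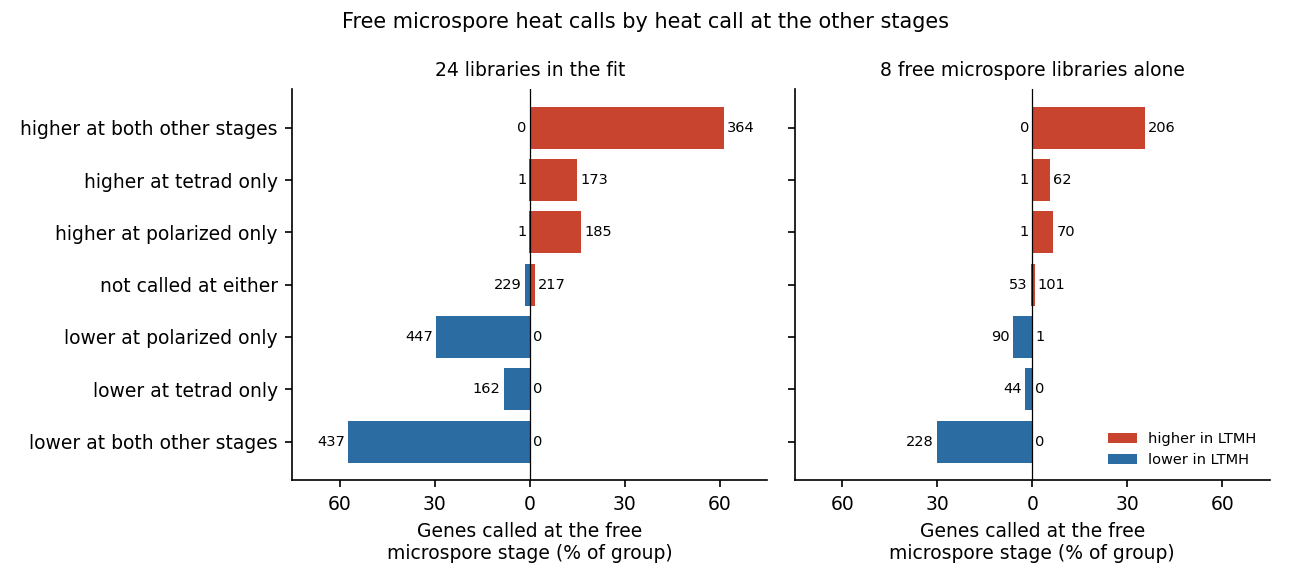
Percentage of genes called higher (red, to the right) or lower (blue, to the left) at equal position in free microspore LTMH, grouped by their heat call at the tetrad and polarized microspore stages, in the fit of 24 libraries (left) and of the 8 free microspore libraries alone (right); numbers are genes, and "only" means not called at the other of the 2 stages. In both fits the calls of the responding groups go almost wholly in the direction seen at the other stages.

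Each heat library carried this shared response to a similar extent, whatever its position. The mean log2 CPM of the 593 genes, relative to the mean of the free microspore CT libraries, was 0.78, 0.67, 0.71 and 0.76 in LTMH replicates 1 to 4 and between -0.04 and 0.05 in the CT libraries. For the 763 genes it was -0.45, -0.46, -0.51 and -0.53 in LTMH replicates 1 to 4 and between -0.02 and 0.06 in CT. LTMH replicate 1, at position 0.767, thus stood with the other LTMH libraries, which lay between 0.363 and 0.438.

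**Figure D5:**
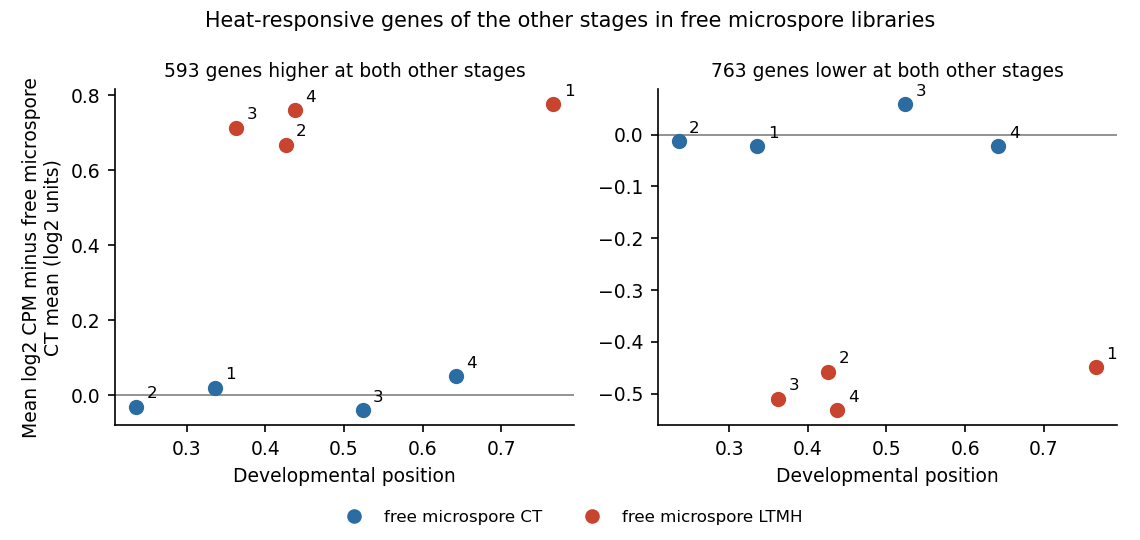
Mean log2 CPM of genes called higher (left, 593 genes) or lower (right, 763 genes) in LTMH at both other stages, minus the mean of the free microspore CT libraries, against developmental position (no unit) for the 4 CT (blue) and 4 LTMH (red) free microspore libraries, with replicate numbers. The groups are far apart in both panels, and values within a group differ little over the range of positions.

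Genes called at 1 of the other stages were called here in differing shares, and these differences were not tested. Of 1516 genes lower only at the polarized microspore stage, 447 were lower here (29.5%), and of 1964 lower only at the tetrad stage, 162 were (8.25%). For higher genes the shares were 185 of 1142 (16.2%) for the polarized microspore and 173 of 1155 (15.0%) for the tetrad stage. Without the position term 266 of the 1516 genes were lower, and 167 of the 1964. The 1516 genes held 324 lower calls with upper-quartile scaling, 199 by limma on FPKM, 214 without CT replicate 3 and 90 of 1465 in the 8 libraries alone. The 1964 genes held 127, 103, 108 and 44 of 1840 in the same order.

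A smaller group was called at this stage alone. Of 14234 genes called for heat at neither other stage, 217 were higher and 229 lower here, 1.52% and 1.61%. They became 316 and 139 with upper-quartile scaling, 450 and 91 by limma on FPKM, 165 and 130 without CT replicate 3, and 101 and 53 in the 8 libraries alone. They cannot be called particular to the free microspore stage. The test of the difference between the heat effect here and the mean of the other stages called 0 genes, 0% of those tested, in edgeR with or without the position term. There were 1020 genes at an unadjusted p below 0.05 without the term and 1386 with it, and the smallest adjusted p was 0.822 and 0.630. DESeq2 called 1 gene and limma, run on log2(FPKM + 1), called 0. Among the 42 genes at least 8-fold higher, 18 were also higher at both other stages and 10 at neither, and their median level went from 0.0879 to 1.22 CPM. Among the 9 genes at least 8-fold lower, 1 was lower at both other stages and 3 at neither. Of all 940 higher genes, 364 were higher at both other stages and 217 were called at neither. Of all 1277 lower genes, 437 were lower at both and 229 were called at neither. Whether the genes with the largest changes differ in this from all called genes was not tested.

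The share of genes called lower also differed with expression level, while the share called higher varied less. Genes were divided into 4 equal classes by their mean CPM over the tetrad and polarized microspore libraries, so that no free microspore value set the classes. Those libraries still enter the estimate of each gene's spread. In the lowest class, below 3.54 CPM, 228 genes were higher and 150 lower at equal position. In the highest class, above 41.4 CPM, 209 were higher and 556 lower. The median log2 change over the called higher genes was 1.51 in the lowest class and 0.40 in the highest. A gene with few reads must change more to be called, so these medians do not compare the size of the response between classes. In the highest class upper-quartile scaling gave 275 higher and 415 lower, and limma on FPKM 335 and 277. The balance of this class thus turned in limma, which changes the values and the test as well as the scaling, but not with upper-quartile scaling. The same class had 139 higher and 322 lower without CT replicate 3, 129 and 499 without the most advanced library of each group, and 94 and 154 in the 8 libraries alone.

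Genes called higher at equal position took a smaller share of a library's reads than genes called lower. The 940 higher genes held 2.75% to 3.12% of reads in the CT libraries and 4.75% to 5.00% in the LTMH libraries, and the 1277 lower genes held 9.45% to 11.7% and 7.87% to 9.03%. Since the genes were chosen on these libraries, the separation is a description. Later genes, chosen on other libraries, held 33.9% to 50.7% of reads in CT and 39.4% to 47.2% in LTMH, and the CT range enclosed the LTMH range. CT replicate 2, the least advanced library, had the lowest share, and CT replicate 3 the highest.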

How the data were processed

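The authors deposited raw read counts per gene and FPKM values for 24 libraries. Per the submitters' processing notes, TopHat2 2.0.12 and HTSeq 0.6.1 were used. The genome build is not given in the sources used here. Deposited FPKM values equal count divided by a whole-base gene length (29041 genes, tolerance 0.01 base) and library total. The library kit is not stated to keep strand, so overlapping antisense genes and near-identical copies are uncertain. The reference table (41476 genes) matched 0 of 35768 identifiers, so the planned lists by gene name could not be used.

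The fit used edgeR 4.0.16 under R 4.3.3, with 6 groups, TMM scaling, filterByExpr (minimum count 10) and robust quasi-likelihood dispersion, with 18 residual degrees of freedom, or 17 with the position term. That term is the position of the 8 free microspore libraries, centred, and 0 for other libraries. Position projects log2 CPM (prior count 2) onto the line joining 2 CT means. SEs derive from the F statistic. Alternatives used DESeq2 1.42.0 and limma 3.58.1 on log2(FPKM + 1) and log2(FPKM + 0.1). Genes printed are the 2 highest and 2 lowest position-adjusted changes among genes meeting the criteria given with them. The groups compared, the stage-wise gene sets and the tests were chosen with earlier results of these data known.

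On simulated counts over 21286 genes, with position slopes included and 200 genes changed for this comparison, the position-adjusted test recovered 44.8% of 1.5-fold, 67.2% of 2-fold and 93.9% of 4-fold changes, and 4.86% of calls were false. The simulation gave 144 calls and the data 2217. Steep slopes were capped, heat at the other stages was left out, and counts were drawn from the fitted spread. These rates therefore need not hold for the real comparison.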

Additional observations from a re-analysis of the deposited data

Results flagged for a closer look

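Of 20 sets of 4 values examined, 1 held a library far from the others, the number that chance gives at about 1 in 20. Among the free microspore CT libraries, the mean log2 CPM of the 763 genes lower in LTMH at both other stages was 0.0583 above the CT mean in replicate 3, while the other 3 CT libraries lay between -0.02 and -0.01. The 4 LTMH libraries lay between -0.53 and -0.45, so this gap is small beside the difference between the groups.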

How the results depend on the processing

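Same-numbered CT and LTMH libraries did not deviate together (correlations -0.234, 0.351, 0.0533 and -0.206; 2 of 8 libraries correlated best with their own number), so the numbers are not taken as pairs. With the replicate number as a block within stage, heat called 1288 genes without and 1916 with the position term, and genes outside the scale tracking position fell to 77. Sign flips of same-numbered pairs gave an exact permutation p of 0.75 for position.

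The heat count of 1891 without position became 506 in the 8 libraries alone, 18 against a log2 change of 1, 664 at an adjusted p below 0.01 and 1149 without the most advanced library of each group. The position-adjusted count of 2217 became 857, 19 and 861 under the first 3 of these. Leaving out single libraries gave 1262 to 1788 genes without and 1303 to 1992 with the position term, 27 to 328 genes tracking position and position differences of -0.0257 to 0.133, the sign turning without CT replicate 2 (-0.00258). Without the term 47.8% of calls were higher, and 58.8% with upper-quartile scaling; limma on log2(FPKM + 1) gave 1314 higher and 564 lower. Genes tracking position outside the scale numbered 287, 141 in limma and 15 in the 8 libraries alone. DESeq2 called 1 gene for the difference from the other stages, against 0.

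Lower calls among later genes (692) became 347 and 337 in limma on log2(FPKM + 1) and log2(FPKM + 0.1), 186 in the 8 libraries alone, 2 against a log2 change of 1, 302 at an adjusted p below 0.01 and 337 to 674 without single libraries. Higher calls (364) became 171 in the 8 libraries alone, 1 against a log2 change of 1, 138 at an adjusted p below 0.01, 196 without the most advanced libraries and 195 to 313 without single libraries. The added counts of later genes, position ranks (2261) and position from every other scale gene (2220) were chosen after seeing the data. Fewer libraries entered the fit of 8; the cause of the other changes was not tested.

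Of 139 alternatives of the summary results, 107 kept within 1.5 times or the same sign and side of the threshold. For heat calls this scores the total and not the balance of higher and lower genes. With upper-quartile scaling the position-adjusted total was thus kept, although 1137 were higher and 970 lower, against 940 and 1277. Of 188 for the 4 printed genes, 178 kept sign and call, 10 lost the call and 0 reversed; Solyc08g080650.3 without the position term had an edgeR adjusted p of 0.0849 with the block. Folds of genes with few reads depend on the prior count.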

Other observations

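Called genes were spread over the genome as the identifiers number it. On chromosomes 1 to 12, between 3.53% and 4.84% of genes tested were higher and between 4.89% and 7.06% lower at equal position, the highest share of lower genes being on chromosome 8. Neighbouring genes were called alike somewhat more often than genes at large. The next listed gene was also higher for 6.19% of higher genes, beside 4.39% of all genes tested, and also lower for 8.54% of lower genes, beside 5.96%. The longest runs were 4 consecutive higher and 5 consecutive lower genes among those tested, both on chromosome 8. Whether reads of near-identical neighbours were told apart was not tested.

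Higher genes had a median length of 1700.5 bases and lower genes of 1548 bases, beside 1640 bases over all genes tested, with lengths recovered from the deposited FPKM values.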
